A study of Mus musculus with 3 samples.

Results

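The 9 genes Itpr1, Itpr2, Itpr3, Stim1, Stim2, Atp2a2, Atp2a3, Atp2b1 and Camk2d, which encode proteins that release, sense, pump and read calcium, were followed through 72 h of osteoclast formation. They were chosen by name, with every probe set annotated to that symbol alone. Of the 9 genes, 6 had such probe sets, 16 in all, out of 12393 genes and 20380 single-symbol probe sets on the array. Expression of Itpr1, Stim2 and Atp2b1 was not analysed here.

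The cells were bone marrow cells of C57/BL6 mice. All 3 cultures first spent 3 days with human M-CSF (50 ng/ml), which makes macrophages. Human RANKL (150 ng/ml) then acted for 0, 24 or 72 h, so the 0 h culture is the state before it. RANKL is the signal by which such precursors become osteoclasts, the multinucleated cells of bone resorption. The labels call the cells precursors at the start, differentiating precursors after 24 h and osteoclasts after 72 h. Each time was measured on 1 Affymetrix array. No culture held for 24 or 72 h without RANKL is part of the design, so the effects of RANKL and of time in culture cannot be told apart.

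In osteoclast precursors, receptors that carry ITAM motifs activate phospholipase C, which makes inositol trisphosphate (IP3). IP3 opens the IP3 receptors of the endoplasmic reticulum (ER), encoded by the Itpr genes, and calcium leaves the store. Stim proteins sense the emptied store and open Orai channels in the plasma membrane, while SERCA pumps, encoded by the Atp2a genes, refill it. The repeated rise and fall of cytosolic calcium activates calcineurin and with it NFATc1, the main transcription factor of osteoclast formation, and calmodulin-dependent kinases read the same signal.

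The deposited values are MAS5 signal intensities. The median gene probe set read 36.7, 60.9 and 62.7 signal units on the 0, 24 and 72 h arrays, a log2 shift of 0.73 and 0.77 against 0 h. Each array was therefore centred on that median, and every value below is a scaled signal or a log2 difference relative to the median probe set. Scaled signals under 29.6 units, the 40th percentile, were set to that floor for differences. A gene was called higher or lower at a log2 difference of 1, which is 2-fold. Because each time has a single array, no difference has a replicate check or a test. The only error at hand is the scatter between 2 probe sets of the same gene. In log2 units its SD was 0.41 when 24 h was compared with 0 h, 0.49 when 72 h was compared with 0 h, and 0.36 from 24 to 72 h, and it leaves out variation between cultures. Among the dimmer genes, where most of these probe sets lie, it was 0.46, 0.54 and 0.42. The labelled cell types were checked by markers. Of the osteoclast markers 5 of 7 measured were higher at 24 h and 8 of 8 at 72 h, and of the macrophage markers 5 of 7 were lower at both times. Csf1r was within 2-fold at both times, while Cd68 was within 2-fold at 24 h and 2.34-fold higher at 72 h.

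By its brightest probe set, 1 of the 6 genes was higher and 2 were lower at 24 h than at 0 h. Over all 8439 genes measured in that comparison, 13.2% were called higher and 9.22% lower, 22.4% in all. At 72 h against 0 h 2 were higher and 2 lower, where 12.5% of 8558 genes were higher and 12.8% lower, 25.3% in all. Between 24 and 72 h 0 were higher and 1 was lower, against 6.92% and 10.0% of 8391 genes, 16.9% in all. The genes did not share a direction. Their median log2 difference was -0.09 at 24 h and -0.04 at 72 h against 0 h, beside 0.12 and -0.01 over all measured genes. From 24 to 72 h it was -0.26, beside -0.14. All 6 genes had at least 1 probe set above the floor, as did 14 of the 16 probe sets, and 10 probe sets were above it on all 3 arrays.

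The call split of the whole array depends on the scaling. Higher calls made up 58.8% of all calls at 24 h in the median-centred data, 42.2% after trimmed mean scaling, 46.9% after quantile normalization and 91.3% on the deposited scale. At 72 h against 0 h the share was 49.4%, and 86.8% on the deposited scale. For 72 h against 24 h it was 40.9%, and 30.8% with scaling to hybridization controls.

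The 3 members with the clearest changes, 1 higher and 2 lower, are shown by the 250 bases before a RefSeq transcript start (build GRCm38.p6). Each is written 5′ to 3′ on the gene's strand, and capitals mark CG dinucleotides. Itpr3 lies at chr17:27057054-27057303 (plus strand), Itpr2 at chr6:146502224-146502473 (minus strand) and Atp2a3 at chr11:72960919-72961168 (plus strand).
Itpr3: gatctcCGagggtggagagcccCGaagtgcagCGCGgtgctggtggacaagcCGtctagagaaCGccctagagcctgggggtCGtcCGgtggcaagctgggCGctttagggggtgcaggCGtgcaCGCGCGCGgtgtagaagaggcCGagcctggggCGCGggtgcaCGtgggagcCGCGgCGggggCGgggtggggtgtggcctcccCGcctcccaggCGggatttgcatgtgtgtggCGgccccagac
Itpr2: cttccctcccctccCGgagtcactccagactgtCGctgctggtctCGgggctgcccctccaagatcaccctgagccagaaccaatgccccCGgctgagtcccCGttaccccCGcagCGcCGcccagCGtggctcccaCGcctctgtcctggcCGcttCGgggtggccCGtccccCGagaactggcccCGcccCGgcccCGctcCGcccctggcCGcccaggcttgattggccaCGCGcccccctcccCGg
Atp2a3: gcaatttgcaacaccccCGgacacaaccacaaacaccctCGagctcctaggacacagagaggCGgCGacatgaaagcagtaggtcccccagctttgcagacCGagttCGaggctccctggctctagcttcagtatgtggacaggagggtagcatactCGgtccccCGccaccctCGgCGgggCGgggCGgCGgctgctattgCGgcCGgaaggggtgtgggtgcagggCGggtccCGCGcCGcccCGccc

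The Itpr3 window held 25 CG dinucleotides, the Itpr2 window 22 and the Atp2a3 window 20, where the median over 32851 promoter windows of the same length was 6. Their G and C content was 72.0%, 74.4% and 66.8%, against a median of 52.4%. The other members with an entry lay above both medians too, among them Stim1 (78.4%, 31 CG dinucleotides) and Camk2d (68.4%, 23). In all 3 windows the NFAT core GGAAA, searched on both strands, had 0 matches, as had the AP-1 motif TGANTCA, which reads the same on both strands. Of all promoter windows 55.6% held GGAAA and 6.75% held TGANTCA. Among the 7 members with a promoter entry, Camk2d held 1 GGAAA on the opposite strand, 192 to 188 bases before the start, and Atp2b1 held 1. A missing match says only that these letters are not in this window.

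Itpr3, the type 3 IP3 receptor, was higher at both times after RANKL. Its 1 probe set, 1417297_at, read 81.5 units at 0 h, 503 at 24 h and 313 at 72 h. Its signal was low only at 0 h, and the 72 h value lay between the others. It was 6.17-fold higher at 24 h (log2 difference 2.63) and 3.84-fold higher at 72 h (1.94), differences several times the probe set error. By size of increase it ranked 39 of 8439 genes at 24 h and 264 of 8558 at 72 h. From 24 to 72 h it differed by -0.68 on the log2 scale, within 2-fold. With 1 probe set there is no other probe set of this gene to compare it with. In bulk RNA, more cells that carry a transcript and more transcript per cell cannot be told apart, and this holds for every gene below.

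Itpr2, the type 2 IP3 receptor, was lower after RANKL. Its brightest probe set, 1424834_s_at, read 153 units at 0 h, 43.7 at 24 h and 34.1 at 72 h. Its signal was high only at 0 h, and by 72 h it stood just above the floor. The gene was 3.50-fold lower at 24 h (log2 difference -1.81) and 4.49-fold lower at 72 h (-2.17). Both calls were lost with its probe sets averaged (-0.87 at each time) and with the floor at the 60th percentile (-0.73, a bound). The difference between 24 and 72 h, -0.36, was no larger than the probe set error.

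The 4 other Itpr2 probe sets were dimmer. Probe set 1427287_s_at read 76.2, 35.5 and 29.5 units at 0, 24 and 72 h, with log2 differences from 0 h of -1.10 at 24 h and -1.37 at 72 h, the latter a bound because the 72 h value is just under the floor. Probe set 1424833_at went from 57.4 at 0 h to 18.0 and 3.57 units, both under the floor, which bounds the difference at -0.96. Both were highest at 0 h, like the brightest one. Probe set 1427693_at was above the floor only at 0 h, at 31.9 units, and 1421678_at was under it on all 3 arrays. So 2 of the 5 were called lower and 0 higher in each comparison with 0 h, and the suffix of both called ones marks probes that match several transcripts.

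The IP3 receptors therefore moved apart. The change in log2 signal from 0 to 24 h was 4.43 larger for Itpr3 than for Itpr2, and from 0 to 72 h it was 4.11 larger, a 21.6-fold and a 17.2-fold change of the ratio between the 2 probe sets. For Itpr2 this is the brightest probe set, the only 1 above the floor on all 3 arrays. With 1427287_s_at, at -1.10 and -1.37 (a bound), the contrast would be smaller. The other Itpr2 probe sets were under the floor at 24 and 72 h and give no such contrast. A common factor on an array cancels in this contrast, so it does not depend on the array scale. The probe set error of such a contrast was 0.58 and 0.69. Between 24 and 72 h the contrast was -0.33, within its error of 0.51. Which receptor had the higher transcript level cannot be read from different probe sets.

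**Figure D1:**
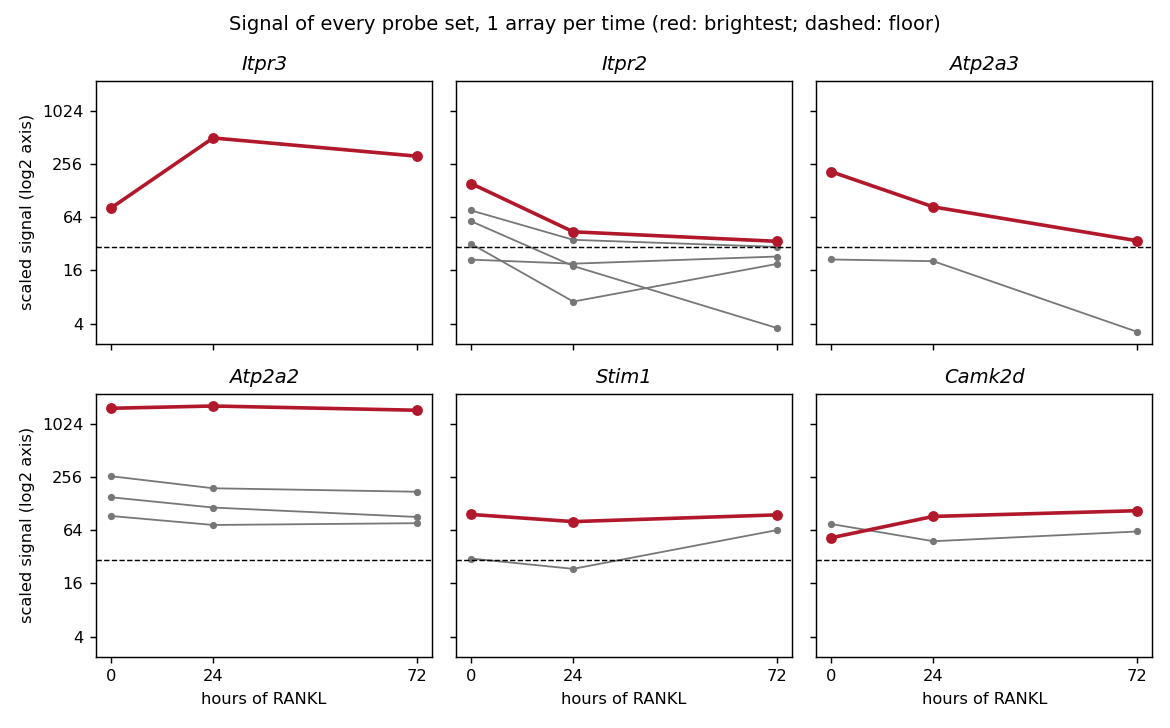
Scaled signal (log2 axis) of all 16 probe sets of the 6 genes against hours of RANKL, with 1 array per time; red lines are each gene's brightest probe set, grey lines the others, and the dashed line is the floor of 29.6 units. Itpr3 goes from 81.5 to 503 and 313, while the brightest probe sets of Itpr2 and Atp2a3 end at 34.1 and 34.6, just above the floor.

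Stim1, the ER membrane protein that senses store calcium, stayed within 2-fold by its brightest probe set. Probe set 1448320_at read 96.4 units at 0 h, 80.1 at 24 h and 95.4 at 72 h. These values lie close together, and the log2 differences of -0.27, -0.01 and 0.25 were all smaller than the probe set error. The first 2 of these signs depend on the scaling, with 0.46 and 0.76 on the deposited scale. The second probe set, 1436945_x_at, read 30.6, 23.4 and 64.2 units and was highest at 72 h. It was 2.10-fold higher at 72 h than at 0 h (log2 difference 1.07). Its suffix marks probes that can match other transcripts, and the 2 probe sets of Stim1 disagreed on that call.

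The SERCA pumps of the ER differed from each other. Atp2a3, which encodes SERCA3, a pump best known from platelets, lymphocytes and other blood cells, was lower at each step by its brightest probe set. That probe set, 1421129_a_at, read 209 units at 0 h, 83.6 at 24 h and 34.6 at 72 h. Its values step down from 0 to 24 to 72 h, and the last one is close to the floor. The gene was 2.49-fold lower at 24 h (log2 difference -1.32) and 6.02-fold lower at 72 h (-2.59), and 2.41-fold lower at 72 h than at 24 h (-1.27). It was the only member called between 24 and 72 h. By size of decrease it ranked 172 of 8558 genes at 72 h against 0 h. The 24 h difference no longer reached 2-fold on the deposited scale (-0.59) or with probe sets averaged (-0.69). That between 24 and 72 h did not reach it with a pseudocount of 16 (-0.98) or with averaging (-0.48). The 72 h difference from 0 h kept its call under every alternative that left the gene a value, at -1.17 with averaging or a floor at the 60th percentile. The second Atp2a3 probe set, 1450124_a_at, was under the floor on all 3 arrays, at 21.3, 20.4 and 3.24 units, and gives no fold.

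Atp2a2, which encodes SERCA2, the pump found in most cell types, was within 2-fold in all 4 probe sets and all 3 comparisons. The brightest, 1427250_at, read 1529 units at 0 h, 1623 at 24 h and 1453 at 72 h. Its log2 differences against 0 h were 0.09 and -0.07, both far inside the probe set error. Both signs turn with the processing: the 24 h value was -0.27 with probe sets averaged, and the 72 h value was 0.70 on the deposited scale. The other 3 probe sets went from 261 to 174, from 151 to 90.3 and from 92.6 to 76.8 units between 0 and 72 h. Their log2 differences of -0.58, -0.74 and -0.27 lie below that of the brightest one, and the first 2 exceed the probe set error.

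The contrast between the SERCA genes is again free of the array scale. From 0 to 72 h the log2 change was 2.52 larger for Atp2a2 than for Atp2a3 by the brightest probe sets, a 5.72-fold change of their ratio, and between 1.85 and 2.52 over the 4 Atp2a2 probe sets. From 0 to 24 h it was 1.40, and between 0.87 and 1.40 over the 4. The contrast lay above its error of 0.69 and 0.58 for each of the 4 probe sets.

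Markers of some other blood cells were also lower after RANKL, though not all at the same times as Atp2a3 and Itpr2. Of 7 measured megakaryocyte and platelet markers, 6 were lower at 24 h and 6 at 72 h, where 9.22% and 12.8% of all genes were lower. Their summed scaled signal was 9117 units at 0 h, 1794 at 24 h and 1618 at 72 h, and Pf4, the platelet chemokine, went from 6085 to 997 and 548 units. The marker that was higher at 72 h was Itgb3, which osteoclasts carry too, and 0 of the 7 were under the floor at 0 h. Of 8 neutrophil markers 2 were lower at 24 h and 8 at 72 h, with sums of 17909, 12655 and 1306 units. Of 6 B cell markers, Cd79a, Ms4a1 and Pax5 were under the floor on all 3 arrays and Cd79b at 24 and 72 h. Ighm read 51.6, 103 and 50.4 units and Blnk 354, 402 and 174, and both were lower at 72 h than at 24 h, when Atp2a3 was lower too. The summed signal of the B cell list was 497, 563 and 277 units. Most of it came from Blnk, so the sum follows that 1 gene and gives no B cell share. At 24 h 0 of 3 measured B cell markers were lower than at 0 h. The T and NK cell markers were under the floor at 24 and 72 h, with 1 of 6 above it at 0 h. Of the erythroid markers and of the mast cell and basophil markers 0 were lower in any comparison, with at most 2 measured in each list. The part of these other cells in the lower Atp2a3 and Itpr2 signals was not tested.

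Camk2d, the delta subunit of calmodulin-dependent kinase II, gave no settled direction. Probe set 1427763_a_at, the brightest by its mean, read 52.7 units at 0 h, 91.6 at 24 h and 106 at 72 h. It was lowest at 0 h. The log2 difference was 0.80 at 24 h and 1.01 at 72 h, a 2.02-fold call that lies at the threshold. Probe set 1422659_at read 75.1, 48.1 and 61.9 units and was highest at 0 h, with differences of -0.64 and -0.28. The 2 probe sets thus had opposite signs in both comparisons with 0 h.

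**Figure D2:**
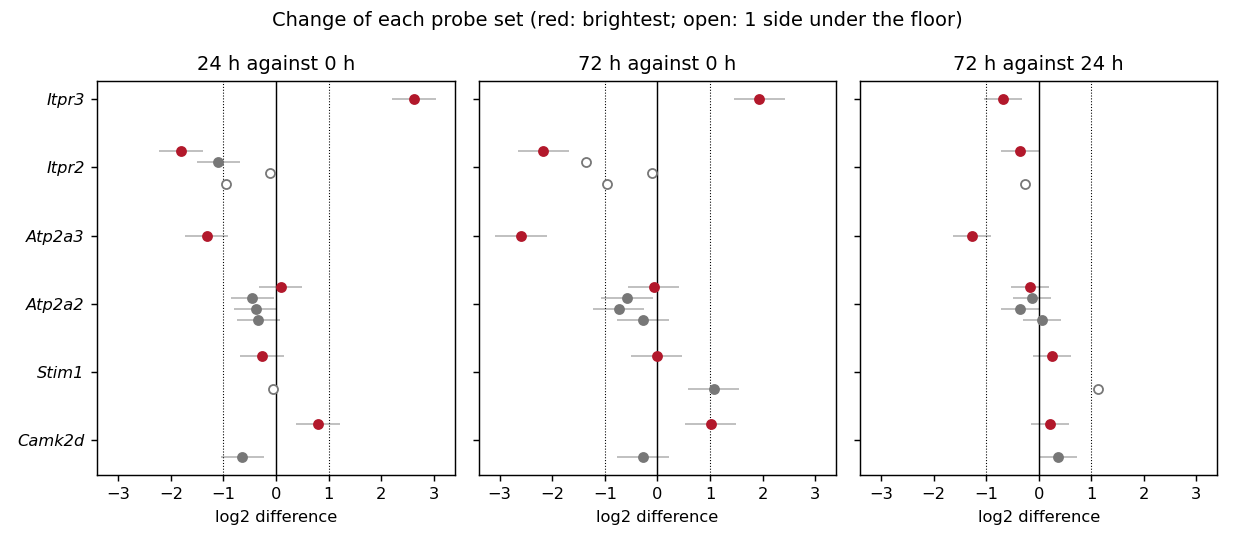
Log2 difference of each probe set in the 3 comparisons. Red points are the brightest probe sets and grey points the others. Open points have 1 side under the floor and are bounds. Bars are the probe set error (0.41, 0.49 and 0.36 on the log2 scale), and dotted lines mark 2-fold. Probe sets with both arrays under the floor are left out. Itpr3 lies right of the 2-fold line at 24 and 72 h, the Itpr2 points lie left of 0, and the Camk2d probe sets lie on opposite sides of 0 against 0 h.

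Over the 3 arrays, the genes most like each called member were found by the distance between their log2 differences at 24 and at 72 h, among 7158 other genes above the floor on all arrays. For Itpr3 these were Pmepa1, at 2.48 and 1.81, and Nol11, at 2.52 and 1.71, at distances of 0.19 and 0.25. For Itpr2 they were Mxd4 (-1.82 and -2.14) and Plek (-1.80 and -2.12), at 0.03 and 0.05. For Atp2a3 they were Ctsh (-1.26 and -2.59) and Stk10 (-1.21 and -2.59), at 0.05 and 0.11. For Camk2d they were Mrpl1 and Spi1, each at 0.03. With 3 arrays the pattern is only a pair of numbers. The genes nearest to Itpr3 were farther away than those nearest to the other called members, but it ranked 39 of 8439 at 24 h, where few genes lie. All these distances were below the probe set error of 0.41 and 0.49, so which genes come nearest is within that error.

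**Figure D3:**
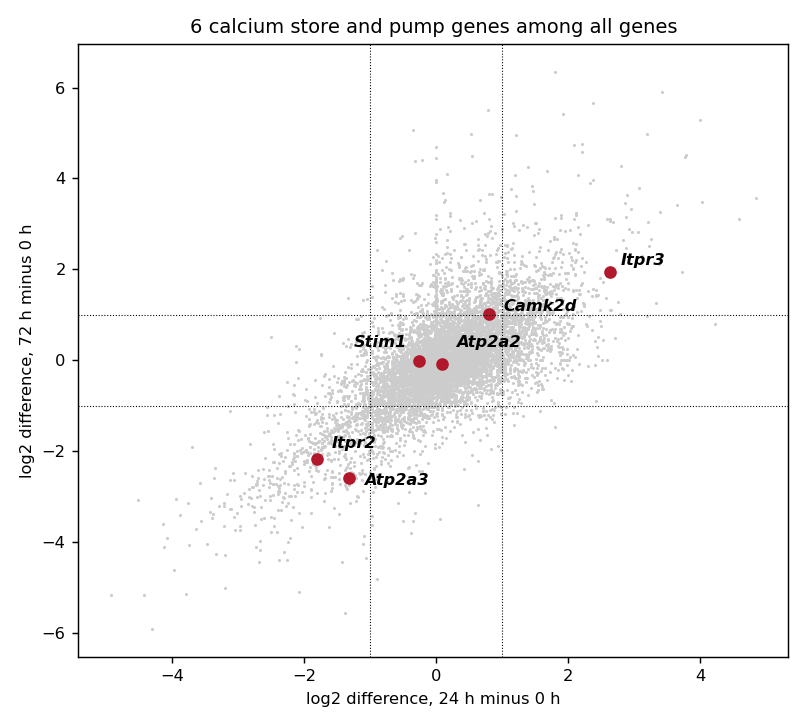
Log2 difference at 24 h (horizontal axis) against that at 72 h (vertical axis), both against 0 h, for every gene above the floor on at least 1 array (grey), with the 6 calcium store and pump genes in red and 2-fold marked by dotted lines. The axes share the 0 h array. Itpr3 lies at 2.63 and 1.94, Itpr2 and Atp2a3 in the lower left, and Stim1 and Atp2a2 near the centre.

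The other genes of calcium handling were taken from 8 lists with 104 genes, of which 77 had a single-symbol probe set. At 24 h 2 of 56 measured were higher and 11 lower, 23.2% in all against 22.4% of all genes. At 72 h 7 of 55 were higher and 12 lower, 34.5% against 25.3%. Between 24 and 72 h 5 of 52 were higher and 3 lower, 15.4% against 16.9%. The median log2 difference was -0.19 at 24 h, -0.07 at 72 h and 0.09 between them, beside 0.12, -0.01 and -0.14 over all measured genes. On the deposited scale it was 0.43 and 0.55 for the comparisons with 0 h, beside 0.78 and 0.68 over all genes. With hybridization control scaling the median from 24 to 72 h was -0.02, beside -0.26. The higher calls were kept under all 4 other scalings, 2 of 2 at 24 h and 7 of 7 at 72 h against 0 h. Of the lower calls, 5 of 11 and 6 of 12 were. The deposited scale, 1 of the 4, shifts log2 differences from 0 h upward by 0.73 and 0.77, so it can hardly remove a higher call. The lower calls kept on that scale were the same 5 and 6, so higher and lower calls were not checked alike.

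The list of calcium entry channels also holds Mcoln1, Mcoln2, Tpcn1 and Tpcn2, which are channels of endosomes and lysosomes. In this list 0 of 10 were higher against 0 h and 4 were lower at each time, where 9.22% and 12.8% of all genes were lower. The median log2 difference was -0.93 at 24 h and -0.75 at 72 h. Lower at 24 h were Trpv2, Trpv4, P2rx4 and Mcoln2, and at 72 h Trpv4, P2rx4, Mcoln2 and Tpcn1. The Tpcn1 call was lost on the deposited scale. On the deposited scale 3 were lower at each time and 2 were higher at 72 h, with medians of -0.20 and -0.02, while 7 were lower at 24 h after trimmed mean scaling or quantile normalization. Orai1, the pore that Stim1 opens, read 358, 200 and 237 units and was within 2-fold, at -0.84 and -0.59. P2rx4, an ATP-gated channel, went from 1248 to 262 and 189 units, 4.76-fold and 6.60-fold lower, and its second probe set gave smaller log2 differences of -1.46 and -1.26. Mcoln2, a channel of endosomes and lysosomes, was 7.06-fold lower at 24 h and 3.56-fold lower at 72 h. Trpv4, whose channel supports calcium entry in mature osteoclasts, went from 133 units to under the floor, at least 4.51-fold lower at both times. Trpv2 dipped instead, at 839, 384 and 1200 units, 2.19-fold lower at 24 h and then 3.13-fold higher at 72 h than at 24 h. Its lower call at 24 h was lost on the deposited scale.

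Modulators of store-operated entry were measured in 4 of 9, with 2 lower and 0 higher at each time, where 9.22% and 12.8% of all genes were lower. The count of lower genes moved with the scaling. On the deposited scale it was 0 at 24 h and 1 at 72 h, and with hybridization control scaling it was 1 and 3. Of all genes 3.71% and 5.33% were lower on the deposited scale, and 8.34% and 13.6% with hybridization control scaling. Cracr2b, an Orai regulator, was at least 4.23-fold lower at 72 h, and Esyt1, a tether between the ER and the plasma membrane, was 3.02-fold and 3.36-fold lower, within 2-fold on the deposited scale. Stimate, a partner of Stim1, was 2.11-fold lower at 24 h a call lost with hybridization control scaling and on the deposited scale.

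Among the other pumps and exchangers, the relatives of the SERCA and plasma membrane pumps Atp2a1, Atp2b2 and Atp2c2 were under the floor on all 3 arrays. Atp2c1, the calcium and manganese pump of the Golgi, read 308 units at 0 h, 321 at 24 h and 1016 at 72 h. It was the pump that was higher late: 3.30-fold at 72 h against 0 h and 3.16-fold against 24 h. Its second probe set read 166, 196 and 356 units, 2.15-fold higher at 72 h than at 0 h. Slc8b1, the mitochondrial sodium and calcium exchanger, went the other way, from 547 to 151 and 85.9 units, 3.63-fold and 6.37-fold lower.

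Ryanodine receptors, the other release channels of the ER, were under the floor on all 3 arrays for Ryr1, Ryr2 and Ryr3. Of the IP3 receptor partners, Bok, a Bcl2 relative that binds IP3 receptors, was at least 3.24-fold higher at 72 h, and Bcl2l1 was 2.12-fold lower at 24 h, a call lost on the deposited scale. Ahcyl1, which competes with IP3 for its receptor, was within 2-fold at 581, 903 and 751 units. In the list of phospholipase C and IP3 metabolism 0 of 9 were higher against 0 h, 1 was lower at 24 h and 2 were lower at 72 h, where 9.22% and 12.8% of all genes were lower. On the deposited scale 1 was higher at 24 h and 3 of 10 at 72 h, with 0 lower. Plcg2, the phospholipase C below the ITAM receptors, read 900, 724 and 438 units and was 2.05-fold lower at 72 h, and Inpp1 fell to the floor, at least 2.02-fold lower. Both were within 2-fold on the deposited scale, where the list's median was 0.31 at 24 h and 0.20 at 72 h, against -0.31 and -0.57 here. The medians over all genes on the deposited scale were 0.78 and 0.68.

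Of the calcium-binding proteins of the ER lumen, 4 of 12 were higher at 72 h and 0 lower, where 12.5% and 12.8% of all genes were. On the deposited scale 6 of 13 were higher. Rcn3 was at least 5.82-fold higher, Calu 3.12-fold, Rcn2 2.58-fold and Rcn1 2.30-fold. These are EF-hand proteins of the secretory pathway. The main store buffer Calr, calreticulin, stayed within 2-fold at 2322, 2238 and 3804 units. Collagen-rich stromal markers were higher at 72 h against 0 h too, 3 of 5, with sums of 1985 units at 0 h, 2210 at 24 h and 6886 at 72 h. At 24 h 0 of 4 measured stromal markers were higher, while Rcn2 was already 2.91-fold higher and Calu was at a log2 difference of 0.98. The part of stromal cells in these genes was not tested. In mitochondrial calcium uptake Letm1, an inner membrane protein of ion exchange, was 4.22-fold and 5.98-fold higher by its brightest probe set, from 82.4 to 347 and 492 units. Its next probe set gave 0.94 and 1.07 on the log2 scale, and another 2 were at or near the floor and within 2-fold.

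Of 5 measured calmodulin-dependent kinases and their activators, which read the calcium signal, 2 were lower at 24 h, 3 at 72 h and 0 higher, where 9.22% and 12.8% of all genes were lower. On the deposited scale 1 was lower at each time, where 3.71% and 5.33% of all genes were. Camk1d went from 471 to 99.8 and 23.6 units, 4.71-fold and at least 15.9-fold lower. Camkk2, the kinase that activates other members, was 3.39-fold lower at 72 h, and its second probe set gave -1.79 on the log2 scale. That call was just lost on the deposited scale, at -0.99. Camk1 was 2.07-fold lower at 24 h and 2.18-fold at 72 h. Both calls were lost on the deposited scale, and that at 24 h with hybridization controls too. Its second probe set gave -1.30 at 24 h and -0.90 at 72 h, the latter within 2-fold. Of the other Camk2 genes, Camk2g was within 2-fold at 161, 157 and 127 units, and Camk2a and Camk2b were under the floor on all 3 arrays.

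**Figure D4:**
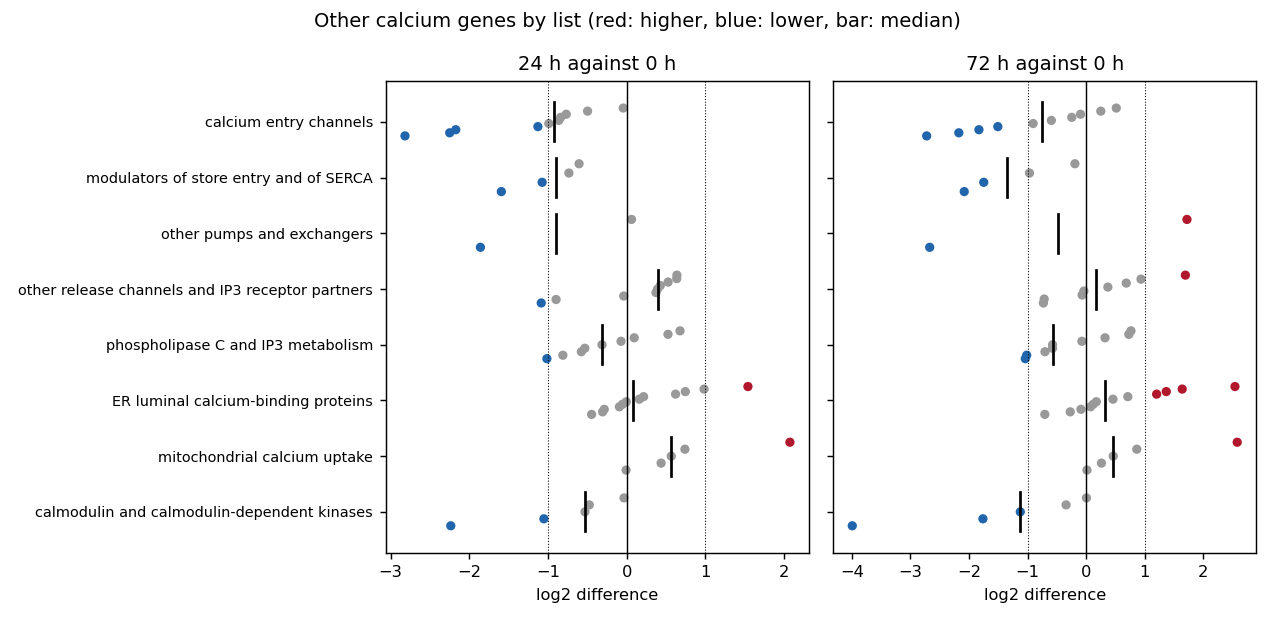
Log2 difference at 24 h and 72 h against 0 h for each measured gene of the 8 calcium lists outside the 6 genes (red higher, blue lower, grey within 2-fold; black bars are list medians, dotted lines 2-fold). The list of calcium entry channels also holds channels of endosomes and lysosomes. Its genes lie left of or near 0, with 4 lower at each time, and 4 luminal calcium-binding proteins lie right of the 2-fold line at 72 h.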

How the data were processed

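Total RNA from 3 cultures was measured on 3 arrays, 1 per time. Per the submitters' processing notes, the authors made the deposited signal intensities with MAS5, whose version is not stated. There were 22690 probe sets, 64 of them controls. Gene symbols came from the platform annotation of the probe sets, updated by gene identifier through RefSeq (GRCm38.p6), which matched 20351 of 20380 single-symbol probe sets. From these values, log2 signals were centred on each array's median over 22626 gene probe sets, with a floor at the 40th percentile. A gene was represented by the probe set with the highest mean log2 signal and counted as measured with at least 1 of 2 arrays above the floor. Promoter sequences are RefSeq's. The calling code was tested on simulated data. Python 3.11.15, numpy 2.4.6 and pandas 2.3.3 were used. All members are named; of the lists, the 4 largest called changes each and the family relatives. For each called member the 2 nearest genes are named. The members and lists were chosen with earlier results of these data known. Alternatives changed the scaling, floor, probe set choice and fold threshold. The number of arrays limits the precision. No array column was left out.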

Additional observations from a re-analysis of the deposited data

How the results depend on the processing

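Of 93 values for counts and medians of the 6 genes under alternatives, 68 stayed close to the main value and 25 moved. On the deposited scale 2 members were higher and 1 lower at 24 h, with median log2 differences of 0.64 at 24 h and 0.73 at 72 h. Over all genes on that scale 39.0% were higher and 3.71% lower at 24 h, with medians of 0.78 and 0.68. At 72 h against 0 h 1 member was higher, in place of 2, under trimmed mean scaling, hybridization control scaling, a floor at the 60th percentile, no floor with a pseudocount of 16, probe sets averaged, multi-transcript probe sets left out, and a 3-fold threshold. The member lost was Camk2d, and without multi-transcript probe sets its difference reversed to -0.28. In these settings the share of all genes called higher ran from 5.39% (3-fold) to 13.0% (probe sets averaged). Members lower at 24 h were 1 with the 60th percentile floor and with 3-fold, and 0 with probe sets averaged or without multi-transcript ones. Of all genes 8.35%, 4.28%, 8.85% and 9.28% were lower in these settings, in that order. Members lower at 72 h against 0 h were 1 with the 60th percentile floor and with probe sets averaged, and 0 without multi-transcript ones. That last setting leaves Atp2a3 without a probe set and represents Itpr2 by a probe set under the floor on all arrays. Of all genes 11.3%, 11.5% and 12.7% were lower there, in that order. From 24 to 72 h 0 members were lower under the 60th percentile floor, the pseudocount, averaging, multi-transcript removal and 3-fold. In these settings 2.84% (3-fold) to 9.86% (multi-transcript removal) of all genes were lower. With a 1.5-fold threshold 2 members were lower from 24 to 72 h and 2 higher at 24 h, where 24.2% and 26.7% of all genes were. Itpr3 was called higher against 0 h in all 9 alternatives of scaling, floor and probe set, with log2 differences from 2.41 to 3.35 at 24 h and 1.75 to 2.71 at 72 h. Its 1 probe set was above the floor on all arrays and has no multi-transcript suffix. The probe set alternatives and the floor at the 20th percentile therefore could not change its values and are no check on this gene. Itpr2 was lower in 6 of 8 and lost with the 60th percentile floor and averaging. No paired analysis was possible because each time has 1 array. Signals near the floor limit the Itpr2, Atp2a3 and Camk2d values.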
